A study of Citrullus lanatus with 6 samples.

Results

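The 200 genes described here are those whose transcript level varied least, in the values as deposited, over 6 leaf libraries of salt-treated and control watermelon (Citrullus lanatus). They were chosen by the measured values alone. Of 23568 genes in the table, 22545 carry a ClCG identifier of the Charleston Gray annotation, 6070 of these averaged 20 FPKM or more over the 6 columns, and the 200 with the smallest coefficient of variation (CV, the SD divided by the mean) were taken. FPKM counts the sequenced fragments of a gene, divided by gene length and by library size. The spread of the members, and every difference between treatments in them, is therefore a description of how they were picked and carries no test.

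The salt group was exposed to 300 mM NaCl and the control group to purified water, both for 7 h in tubes after removal from the growth medium. All plants were seedlings of cv. Crimson Sweet at an age of 6 weeks. Each treatment has 3 leaf libraries from separate plants of this single cultivar. Some labels of the treated libraries say drought and others salt, and they are taken as salt here because the protocol label and the title of the series say so. In bulk leaf RNA, a change in the mix of cell types and a change in the RNA content of each cell cannot be told apart. The libraries hold 18979423 to 20118169 fragments in salt and 18838185 to 21258223 in control. The 21 photosystem and antenna genes listed by the study, which mark green leaf tissue, summed to 483 to 3437 FPKM in salt and 9334 to 13893 FPKM in control libraries. In each of salt replicates 1 and 2, 1 of them was listed at 0. The study reported photosystem and antenna genes as lowered by salt in the same libraries. The lower sums in salt therefore follow from how the list was made and are no separate evidence about the tissue.

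Genes of constant level serve as the yardstick of expression work. In quantitative PCR the amount of a transcript is given relative to a reference gene whose own level is taken not to move, and cytoskeleton genes are common choices in plants. Actin forms the thin filaments of the cytoskeleton, and α-tubulin pairs with β-tubulin to build microtubules. The study used actin (ClCG02G000680) and α-tubulin5 (ClCG02G024360) as its reference genes, and they are set beside the 200 genes below. Their primers are shown because they define which transcripts served as that yardstick. Each is written from the 5′ end in lower case, with no part singled out, and all 4 are 20 bases long with a G and C content of 50% or 55%.
Actin, forward: ccatgtatgttgccatccag
Actin, reverse: ggatagcatggggtagagca
α-tubulin5, forward: gatggtatgatgcccagtga
α-tubulin5, reverse: ccggtaggctccagttctaa

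α-Tubulin was itself among the 200 genes and actin was not. By CV, α-tubulin took place 80 of the 6070 genes and actin place 1778. α-Tubulin had 18.6, 19.0 and 23.4 FPKM in the salt libraries, against 21.3, 19.6 and 23.6 FPKM in the control libraries. The treatments overlapped, and replicate 3 was the highest library in both. Its CV was 10.5%, its means were 20.4 ± 2.65 FPKM in salt and 21.5 ± 2.03 FPKM in control (SD, n = 3 each), and its mean of 20.9 FPKM lay just above the minimum of 20. Its limma log2 fold change was -0.08 (standard error 0.23) and is given without a p-value, because a small spread made it a member.

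Actin had 200.5, 124 and 302 FPKM in the salt libraries, against 320.0, 279.5 and 308 FPKM in the control libraries. Salt replicate 2 was far below the other libraries, salt replicate 1 was also below all controls, and salt replicate 3 lay inside the control range. The means were 209 ± 89.2 FPKM in salt and 302 ± 20.8 FPKM in control (SD, n = 3 each), and the CV over all 6 was 30.3%. The difference did not pass the test by limma, which estimated it at -0.62 on the log2 scale with a standard error of 0.34 and a Benjamini-Hochberg adjusted p of 0.161. With 3 libraries per treatment, this does not show that actin was unchanged. Without salt replicate 3 actin fell by 0.94 on the log2 scale (limma, adjusted p = 0.0423). After the median-ratio scaling described below, the limma log2 fold change of actin was -0.04 (adjusted p = 0.925), and its adjusted p lay between these values, 0.0423 and 0.925, in the other alternatives.

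The steadiest gene of all was ClCG07G008440. It had 150.9, 159.5 and 157.5 FPKM in the salt libraries, against 149.6, 154.3 and 155.2 FPKM in the control libraries. Its highest library was 1.07 times its lowest, and its CV was 2.44%. Counting its 2449 to 2805 fragments per library would alone give a CV of 1.95%. The tables of the study describe 2 of the 200 members, and ClCG07G008440 is among the other 198, which are given here by identifier only.

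ClCG03G014740 came next, at a much lower level. It had 22.6, 22.0 and 21.9 FPKM in salt libraries, against 23.0, 24.4 and 22.0 FPKM in control libraries, with a CV of 4.27% where counting alone gives 3.58%. The salt libraries sat at the low edge of the control range. The third was ClCG02G011440, with 74.9, 79.3 and 85.5 FPKM in salt libraries, against 78.9, 80.0 and 75.2 FPKM in control libraries. Its control values fell inside its salt range.

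Of the 10 steadiest genes, 8 had overlapping treatments. The exceptions were ClCG06G000440 and ClCG06G013570. ClCG06G000440 had 34.5, 31.5 and 33.2 FPKM in salt libraries, against 29.8, 30.9 and 31.4 FPKM in control libraries and each salt library lay above each control one, narrowly so for salt replicate 2 and control replicate 3. ClCG06G013570 had 96.2, 104.6 and 103.9 FPKM in salt libraries, against 106.6, 109.3 and 114 FPKM in control libraries, all salt values below all control values. Among the rest, ClCG05G001980 had means of 37.1 ± 2.77 FPKM in salt and 35.9 ± 0.713 FPKM in control (SD, n = 3 each). ClCG02G011370 had 25.7 ± 1.92 FPKM in salt and 24.4 ± 0.546 FPKM in control. In both genes the salt libraries were farther apart from each other than the control libraries were. ClCG01G022920, with 57.7 ± 2.94 FPKM in salt and 59.3 ± 4.66 FPKM in control, and ClCG05G008340, with 82.7 ± 4.12 FPKM in salt and 82.9 ± 7.04 FPKM in control, had the wider spread in control. ClCG09G002030 closed the first 10 with 117 ± 8.05 FPKM in salt and 116 ± 8.62 FPKM in control and a CV of 6.40%.

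**Figure D1:**
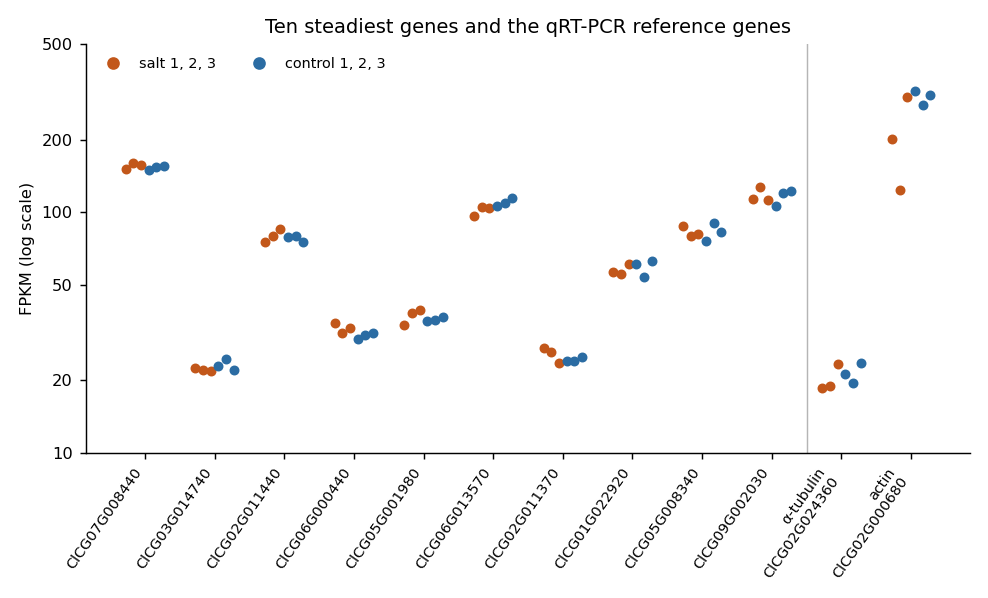
FPKM on a log axis of the 10 genes with the smallest CV and, right of the line, of α-tubulin and actin, with 1 point per library (salt orange, control blue, replicates 1 to 3 from left to right in each color). The points of ClCG07G008440 lie between 149.6 and 159.5 FPKM, those of actin between 124 and 320.0 FPKM.

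The members covered a wide range of levels. Their means ran from 20.1 to 592 FPKM with a median of 46.7 FPKM, close to the median of 44.5 FPKM of the other 5870 genes of at least 20 FPKM. Of the members 59 were below 30 FPKM, 33 were at 100 FPKM or more and 11 at 200 FPKM or more. The other genes reached 9455 FPKM. When the 6070 genes were ordered by level and split into 5 equal parts, the parts held 47, 31, 35, 55 and 32 members from the lowest level to the highest, so that each level held members.

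The most abundant member was ClCG08G011560. It had 515, 642 and 540.2 FPKM in salt libraries, against 616, 569.8 and 669 FPKM in control libraries, with a CV of 10.2% and overlapping treatments. ClCG09G020500 followed with 338, 248 and 353 FPKM in salt libraries, against 326, 285 and 335 FPKM in control libraries. Replicate 2 was its lowest library in both treatments. ClCG01G007900 had 278, 236 and 245 FPKM in salt libraries, against 334, 292 and 299.98 FPKM in control libraries. All its salt values were below all its control values, and its log2 ratio of the salt mean to the control mean was -0.29. ClCG07G013900 had means of 284 ± 45.6 FPKM in salt and 277 ± 7.83 FPKM in control (SD, n = 3 each). In ClCG10G000540 the means were 270.3 ± 48.4 FPKM in salt and 287 ± 27.2 FPKM in control. In both of these genes salt replicate 3 was the highest library and salt replicate 2 the lowest.

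The spread of most members was several times their counting error. The CV of the members ran from 2.44% to 13.4% with a median of 11.03%, against a median of 46.2% in the other genes, while the members' CV from counting alone had a median of 2.60%. No member had a CV below its counting error, and 8 of the 200 were under 2 times it. None of the other 5870 genes was. The library with the fewest fragments of a member held 140 to 21098 fragments (median 1268, against 557 in the other genes). A gene of small spread has no library far below its mean, so this gap follows at least in part from the choice. The CV from counting alone had a median of 2.73% in the other genes, close to that of the members. The members had a median length of 1472 bases, against 1392 bases in the other genes. Split by length into 5 nearly equal parts, from shortest to longest, the 6070 genes gave 24, 42, 44, 49 and 41 members, the fewest among genes of up to 826 bases. Such short genes give fewer fragments at the same FPKM, and whether this bears on their count of members was not tested.

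**Figure D2:**
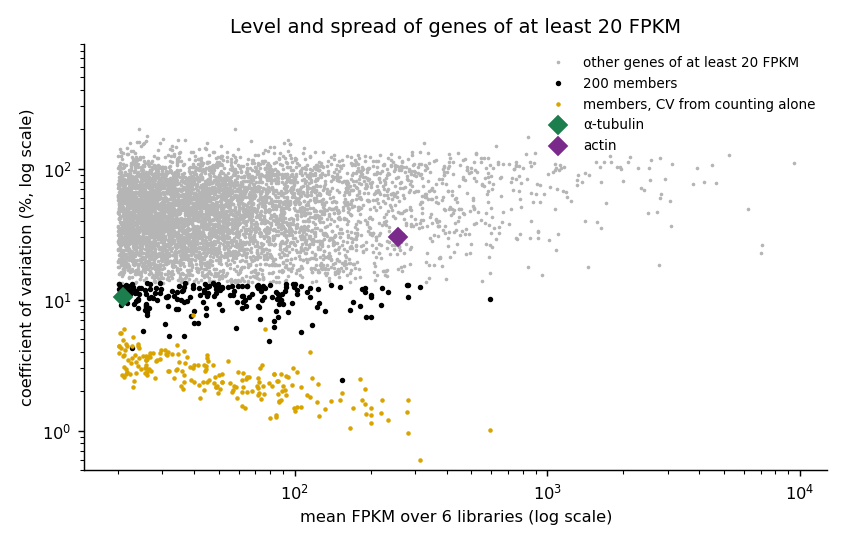
CV in percent against mean FPKM, both on log axes, for the 200 members (black), the other 5870 genes of at least 20 FPKM (grey), α-tubulin and actin, with the CV that counting of fragments alone gives for each member (yellow). The members lie at 13.4% CV or below at all levels up to 592 FPKM, mostly well above their counting error.

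The border of the list falls in a dense part of the distribution. The last members inside were ClCG05G000300, ClCG11G000310 and ClCG03G013000, with CVs of 13.35%, 13.41% and 13.42%. The first genes outside were ClCG09G013960, ClCG05G010670 and ClCG08G009100, with 13.42%, 13.47% and 13.48%. ClCG03G013000 had 48.2, 45.5 and 38.1 FPKM in salt libraries, against 44.1, 55.8 and 52.9 FPKM in control libraries. ClCG09G013960, just outside, had 37.5, 31.9 and 31.6 FPKM in salt libraries, against 43.6, 39.4 and 42.1 FPKM in control libraries. At nearly the same CV, the treatments overlapped in ClCG03G013000 and did not in ClCG09G013960.

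Over the 200 genes, differences between treatments were small in both directions, as the choice requires. The log2 ratio of the salt mean to the control mean ran from -0.32 to 0.29 with a median of -0.02, was above 0 in 89 genes and below 0 in 111, and was within 0.1 of 0 in 95. In 127 genes the difference of the means was smaller than the pooled SD of the replicates. By limma, 0 of the 200 passed at an adjusted p below 0.05 and 0 at an unadjusted p below 0.05, where 47.8% of all 16638 genes tested passed at the adjusted p. Treatments did not overlap in 37 of the 200 genes, where the share of all genes tested was 61.1%. Salt was above control in 14 of them (17.7% of all genes tested) and below in 23 (43.4%). The rule used this contrast, so nothing is read from these counts.

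The largest ratios of salt to control among the members were those of ClCG11G018760, ClCG08G005970 and ClCG01G009900. ClCG11G018760 had 100.9, 97.1 and 104 FPKM in salt libraries, against 77.4, 84.6 and 84.3 FPKM in control libraries, and ClCG08G005970 had 23.3, 22.3 and 25.3 FPKM in salt libraries, against 17.8, 19.2 and 21.3 FPKM in control libraries. In both genes all salt libraries lay above all control libraries, and the log2 ratios were 0.29 and 0.28. ClCG01G009900, also without overlap, had a log2 ratio of 0.28. At the other end stood ClCG07G001290, ClCG04G008150 and ClCG09G013540, with log2 ratios of -0.32, -0.31 and -0.29. ClCG04G008150 had 39.5, 45.3 and 44.5 FPKM in salt libraries, against 56.6, 52.4 and 51.3 FPKM in control libraries, again without overlap.

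ClCG09G001170 is the other member with a description. It is given as the vesicle-trafficking protein SEC22b, a SNARE protein that acts in the fusion of vesicles between the endoplasmic reticulum and the Golgi in yeast and animals. It had 65.1, 68.6 and 61.1 FPKM in salt libraries, against 60.2, 67.7 and 52.4 FPKM in control libraries, and took place 56 by CV with 9.61%. The treatments overlapped, with replicate 2 the highest and replicate 3 the lowest library in both. The paper, which tested read counts and called genes by adjusted p and fold change, names SEC22b among the SNARE genes raised by salt. The FPKM ratios given here are a different measure, so they neither repeat nor contradict that call. Here the log2 ratio of its salt mean to its control mean was 0.11 as deposited. After the median-ratio scaling described below it was 0.72. Of 10 genes in the study's SNARE list, 6 reached a mean of 20 FPKM and SEC22b alone was among the 200. Of the endocytosis list 31 of 47 genes reached that level, of amino acid transport 25 of 60, of photosynthesis and terpenoid synthesis 44 of 53 and of hormone signaling 34 of 87, and these lists held 0 members. In the part read here of the study's list of genes raised by salt, 818 of 1848 genes reached that level, also with 0 members. Nothing is read from the counts of 0. These lists were drawn up by the study as changed genes of the same libraries, so the counts are not independent of the choice of members.

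Choosing genes of small CV over these 6 libraries keeps each library near the mean of a gene, so the values by library are a description of the choice. Each gene was divided by its own mean over the 6 libraries, and the median over the 200 genes was 1.02, 0.975 and 0.989 in salt replicates 1 to 3, against 0.989, 1.05 and 0.986 in control replicates 1 to 3. The libraries of both treatments thus straddled 1. In the other 5870 genes the same medians were 0.858, 0.71 and 0.829 in salt, against 1.14, 1.17 and 1.10 in control, all salt libraries below all control libraries. Control replicate 2 was the highest library of 54 members and the lowest of 11. Salt replicate 2 was the lowest of 55 members and the highest of 17. The members took 2.04% to 2.19% of all fragments in salt libraries, against 2.13% to 2.22% in control libraries. The CV within a treatment had a median of 9.69% over the members in salt and 8.63% in control, and 114 of the 200 had the larger CV in salt.

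The steadiness of these genes was not kept under median-ratio scaling. FPKM gives each gene as a part of its library. In the part of the study's table read here, 56 genes are described as heat shock proteins or chaperones. They took 7.78% to 12.2% of all FPKM in salt libraries, against 0.36% to 0.864% in control libraries. That part lists genes the study found raised by salt in the same libraries, so a higher share in salt follows from the choice. The part of these genes in what follows was not tested. In the deposited values the 16638 genes tested had a median limma log2 fold change of -0.57. Dividing each library by its median ratio to the geometric mean library brought that median to -0.05, with factors of 0.954, 0.69 and 0.881 for salt replicates 1 to 3, against 1.21, 1.26 and 1.29 for control replicates 1 to 3. On that scale a gene that kept its FPKM had moved up among the other genes.

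After median-ratio scaling, all 200 genes had a higher mean in salt than in control. Their log2 ratio then ran from 0.26 to 0.89 with a median of 0.58, against a median of 0.05 in the other 5870 genes of at least 20 FPKM. Of the 200, 182 had all salt libraries above all control libraries, against 29.0% of all genes tested, and 50 were called higher by limma at an adjusted p below 0.05, against 22.4%. At an unadjusted p below 0.05 the limma count was 104 of 200, and 0 were called lower. Quantile normalization called 12 of the 200 higher, against 21.6% of all genes tested, and 0 lower. Scaling to a common FPKM sum called 0 of the 200 in either direction, where 44.5% of all genes tested were called, and 0 of them at an unadjusted p below 0.05. The scaled counts and ratios follow from the choice of the genes and the factors together and are no separate evidence of a response.

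The steadiest gene, ClCG07G008440, shows the size of this shift. Its scaled values were 158, 231 and 179 in salt libraries, against 124, 123 and 120.4 in control libraries, so that its log2 ratio of 0.03 became 0.63 and its CV of 2.44% became 28.1%. Salt replicate 2, which has the smallest factor, was its highest library. The first 10 members by CV took places 1149 to 1770 of 5929 genes by scaled CV. SEC22b had scaled values of 68.2, 99.4 and 69.3 in salt libraries, against 49.9, 53.8 and 40.6 in control libraries, now without overlap. α-Tubulin had scaled values of 19.5, 27.6 and 26.6 in salt libraries, against 17.7, 15.5 and 18.3 in control libraries, and a scaled CV of 23.9%. Actin had 210.1, 179.7 and 342 in salt libraries, against 265, 222 and 239 in control libraries, and a scaled CV of 23.2%. The reference genes thus took places 1156 and 1062 by scaled CV, close to each other, where the deposited values set them far apart.

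**Figure D3:**
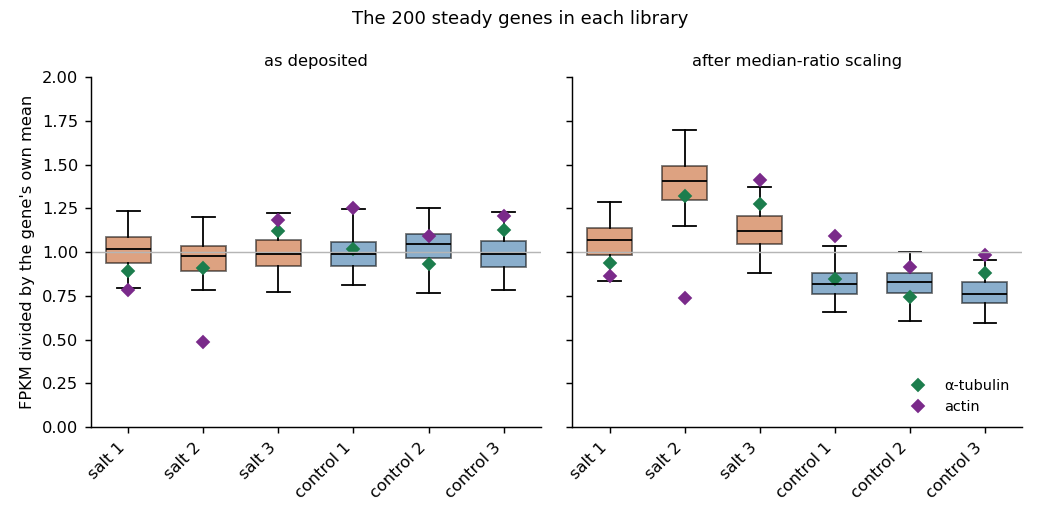
FPKM of each of the 200 genes divided by its own mean over the 6 libraries, as deposited (left) and after median-ratio scaling (right). Boxes give the quartiles and median, whiskers the lowest and highest gene, and diamonds α-tubulin and actin. The medians run from 0.975 to 1.05 as deposited, and after scaling from 1.07 to 1.41 in salt and 0.762 to 0.83 in control libraries.

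When the 200 steadiest genes were chosen anew from the scaled values, 2 of the 200 members were chosen again. They were ClCG07G001290, at place 166, and ClCG09G013540, at place 172. ClCG07G001290 had 24.0, 21.0 and 24.5 FPKM in salt libraries, against 30.4, 27.7 and 28.7 FPKM in control libraries as deposited. After scaling it had 25.1, 30.5 and 27.8 in salt libraries, against 25.2, 22.0 and 22.3 in control libraries, so that the direction of its difference turned. ClCG09G013540 had 25.1, 21.7 and 25.2 FPKM in salt libraries, against 29.3, 28.8 and 30.1 FPKM in control libraries as deposited, and its CV was 12.1% as deposited and 12.8% after scaling. Next among the members by scaled CV were ClCG01G007900, ClCG05G010720 and ClCG11G014090, with 14.8%, 15.2% and 15.3%. All 5 of these had lower FPKM means in salt than in control, and higher scaled means.

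The steadiest gene on the scaled values was ClCG11G006500, with a scaled CV of 3.94%. Counting its 135 to 269 fragments per library would alone give a CV of 6.81%, so its scaled CV lay below its counting error. ClCG11G006500 was not a member, with 45.2, 31.3 and 38.9 FPKM in salt libraries, against 57.6, 55.2 and 61.6 FPKM in control libraries, and a CV of 24.5% as deposited. The 200 genes chosen from the scaled values all had lower FPKM means in salt than in control, with a median log2 ratio of -0.56. ClCG11G006500 was chosen for naming after its values were seen. The 2 lists thus hold nearly separate genes, both steady by the same measure and each on its own scale.

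**Figure D4:**
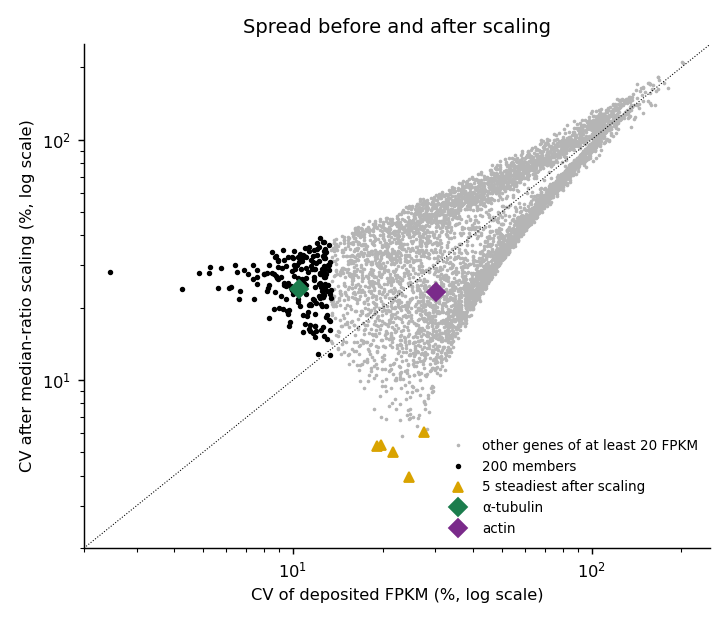
CV after median-ratio scaling against CV of the deposited FPKM, both in percent on log axes, for the 200 members (black), the other genes of at least 20 FPKM (grey), α-tubulin, actin and the 5 genes steadiest after scaling (yellow triangles). The members lie at a scaled CV of 12.8% to 39.0%, all but ClCG07G001290 above the dotted line of equal CV.

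Dividing by a reference gene moved the members as well. Relative to α-tubulin, the log2 ratio of salt to control had a median of 0.07 over the 200 genes, with 124 above 0 and 75 below, α-tubulin itself being at 0. Relative to actin, all 200 were above 0 with a median of 0.69 and a range from 0.37 to 1.00. The median member stood at 0.232, 0.368 and 0.149 times actin in salt replicates 1 to 3, against 0.146, 0.179 and 0.148 times actin in control replicates 1 to 3. Salt replicate 3 lay within the control range and the other salt libraries above it. The median CV of the members was 11.03% as deposited, 15.4% relative to α-tubulin and 43.3% relative to actin. The members and α-tubulin were taken for their small spread and actin was not. These ratios and CVs therefore follow from the choice and do not rank the reference genes.

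The list was also drawn on 5 libraries at a time, so that the remaining library could be read without having served in the choice. The 200 genes chosen without salt replicates 1, 2 and 3 shared 133, 123 and 135 genes with the members, and those chosen without control replicates 1, 2 and 3 shared 156, 144 and 150. In all 6 such lists 91 of the members recurred, among them α-tubulin and all of the 10 steadiest. Each of these lists used 5 of the libraries that chose the members, so the sharing and the recurrence are in part built in. In the library left out, 67%, 52.5% and 61.5% of the chosen genes kept within 0.8 to 1.25 times their mean in the other libraries for salt replicates 1 to 3, against 78.5%, 65.5% and 75.5% for control replicates 1 to 3. Over all genes of at least 20 FPKM the same shares were 30.3%, 20.5% and 29.2% for the salt libraries, against 28.1%, 27.7% and 34.9% for the control libraries. Salt replicate 2 had the lowest share, and its chosen genes ran from a log2 ratio of -1.74 to 1.26 with a median of -0.21. All members lie by construction within the narrow spread that chose them, and the libraries left out show a wider one.

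**Figure D5:**
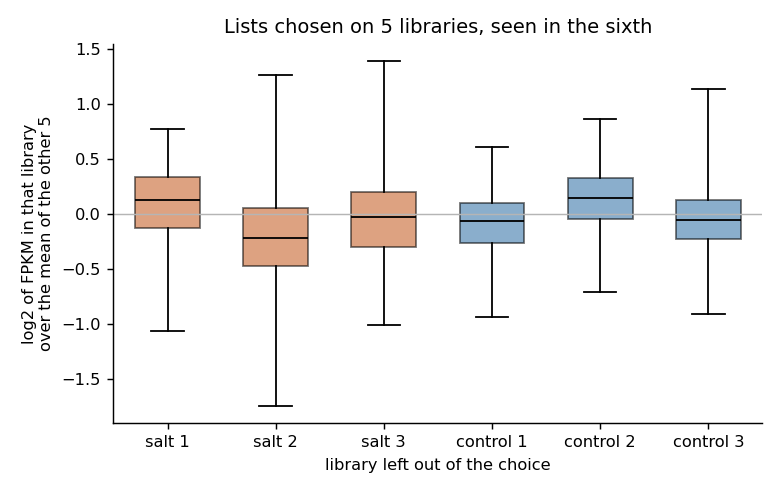
Log2 of FPKM in the library left out over the mean of the other 5, for the 200 genes chosen on those 5, by library left out (salt orange, control blue; boxes give quartiles and median, whiskers the lowest and highest gene). The medians run from -0.21 in salt replicate 2 to 0.14 in control replicate 2.

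Steadiness within a treatment was a different property. The 200 genes with the smallest value of the larger of their 2 within-treatment CVs shared 53 genes with the members. Those 200 included genes with log2 ratios of salt to control from -3.42 to 4.46, and α-tubulin was not among them. Genes with closely agreeing replicates thus included some with large differences between treatments. Measures of spread over all 6 libraries gave much the same genes as the CV, with 192 shared members for the SD of log2 FPKM and 173 for the range divided by the mean.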

How the data were processed

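Leaf RNA of 3 salt-treated and 3 control seedlings was sequenced as paired-end reads. The deposited table holds 1 FPKM value per gene and library, computed by the authors from uniquely mapped reads and gene length on the Charleston Gray genome, with replicates kept apart. For alignment and counting, the paper names Bowtie 2.2.3, TopHat 2.0.12 and HTSeq 0.6.1, and the submitters' processing notes name HISAT2 2.1.0 and featureCounts. The table does not tell which were used. FPKM is not corrected for shifts between libraries, which bears on every gene called steady here.

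Whole fragments, gene lengths and library totals were recovered from the steps in the FPKM values (tolerance 0.002 fragments, or 1e-07 of the count where larger) for all 19557 genes with a value. On simulated data of 6000 genes 6 of 6 totals were recovered. They served for depth and for the CV of counting alone, a Poisson value that covers counting error only.

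Genes averaging 0.5 FPKM or more were fitted with limma 3.58.1 (R 4.3.3) on log2(FPKM + 0.5), which understates changes of low genes, with Benjamini-Hochberg adjustment over the 16638 genes. A gene was called at an adjusted p below 0.05. The authors tested read counts, and limma was used because FPKM are not counts. Median-ratio factors came from genes tested that were above 0 in every library. Alternatives were other pseudocounts, filters, scalings, measures of spread, a replicate block and each library left out. Deviations from the group means correlated across genes at 0.175, 0.105 and 0.128 between salt and control libraries of the same number, and at -0.108 to -0.039 between other pairs. Deviations from a group mean cancel within the group, so positive values for some pairs force negative ones for others. The labels give the replicate numbers but name no shared batch, and whether libraries of the same number belong together was not tested.

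Named genes were the reference genes, the 10 smallest CVs, the 5 highest means, 3 genes on each side of the border, the 3 largest and 3 smallest ratios, the 5 smallest scaled CVs and members listed in the study's tables. The members and lists were chosen with earlier results of these data known. Descriptions come from the study's tables, whose columns of fold changes and p-values were not used. Other software was matplotlib 3.10.9, pandas 2.3.3 and numpy 2.4.6, under Python 3.11.15.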

Additional observations from a re-analysis of the deposited data

How the results depend on the processing

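The list changed most with median-ratio scaling: of the 200 members, 2 were chosen again after median-ratio scaling and 62 after quantile normalization. By the larger within-treatment CV 53 were chosen again, and with a minimum of 50 FPKM 93, which are all the members that reach it. Without 1 library at a time 123 to 156 were chosen again, and under the other measures, minima and scalings 151 or more. The number of members called by limma was 50 after median-ratio scaling, 12 after quantile normalization and 0 in all other settings. Of all genes tested, 2266 were called higher and 5684 lower in salt; these counts were 3724 and 3466 after median-ratio scaling, 3602 and 3809 after quantile normalization, and without 1 library at a time 1624 to 2109 higher and 3685 to 5613 lower. α-Tubulin turned from a log2 fold change of -0.08 to 0.49 after median-ratio scaling, 0.35 after quantile normalization and 0.0082 with a common sum. Actin had a log2 fold change of -0.62, which was -0.04 after median-ratio scaling, -0.57 after quantile normalization and -0.53 with a common sum, and which lay between -0.94 and -0.30 without 1 library at a time. With the replicate block 8016 of all genes tested were called, against 7950, and it changed no call of a member, actin or α-tubulin. With 3 libraries per treatment, a member's CV rests on 6 values.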
